A study of Mus musculus with 10 samples.

Results

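The 10 genes described here belong to the glycosylphosphatidylinositol (GPI) anchor pathway: Piga, Pigv, Pign, Pigk, Gpaa1, Pigs, Pigt, Pgap1, Pgap3 and Pgap2. They are 10 of the 36528 gene identifiers in the files, and all 10 passed the filter on low counts, which left 13588 genes for the test. The set was chosen with the outcome in view: Pgap1 had the smallest p-value among the genes whose estimate was lower after anti-MerTK, and the other 9 are genes of the same pathway named with it. The difference between the treatment groups in these 10 genes is therefore given as a description. Where a gene of the set is placed against the threshold of the test over all genes, that placing reflects the values by which the set was chosen and is no evidence for it.

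RNA-seq was performed on polyadenylated RNA of tumour-associated macrophages purified from C57Bl/6 mice that carried MC-38 tumours, which grow from a mouse colon carcinoma line. The mice had received anti-MerTK, an antibody against a receptor by which macrophages take up dying cells, or the comparison antibody anti-gp120, which is directed at a viral envelope protein. Macrophages were profiled 24 h after anti-MerTK. Each treatment has 5 libraries, and the labels give no other difference between the groups. Whether each library is from a mouse of its own is not stated in the labels, and p-values therefore reflect the spread between these libraries, technical or otherwise.

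The libraries held 33159858 to 46108687 counted reads. Macrophage markers were abundant in both groups, with summed levels of 28846 to 38769 CPM (a gene's share of a library's counts, scaled to a common library size) after anti-gp120 and 31101 to 37132 CPM after anti-MerTK, and none of the 10 markers was at 0 in any library. On the first principal component, anti-MerTK replicate 2 scored 46.6, and the other 9 libraries scored between -28.3 and 16.0. The anti-gp120 libraries scored from -28.3 to 1.51, and anti-MerTK replicate 5, at -12.9, lay among them. Across all tested genes, 438 (3.22%) passed edgeR's quasi-likelihood test at an adjusted p under 0.05, of which 251 were higher and 187 (1.38%) lower after anti-MerTK. The groups of 5 libraries did not overlap in CPM for 811 genes (5.97%).

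A GPI anchor is a glycolipid that holds a protein on the outer face of the cell membrane. It is built on phosphatidylinositol in the endoplasmic reticulum by the Pig enzymes, passed to the protein's carboxyl end by the GPI transamidase, and then trimmed by the Pgap proteins, whose name stands for post-GPI attachment to proteins. Macrophages carry GPI-anchored proteins such as Cd14, a co-receptor for bacterial lipopolysaccharide.

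Pgap1 and Pign are the 2 genes of the set that were lower after anti-MerTK at the threshold, so the bases upstream of their starts are shown. Both genes lie on the minus strand of mouse chromosome 1, and the sequences are from RefSeq on GRCm38.p6, read 5′ to 3′ on that strand. The Pgap1 stretch covers chr1:54557685-54557934, the 250 bases before its start. For Pign the window is chr1:105663677-105663926, and 65 of its 250 bases lie within the RefSeq gene record. The 185 bases outside that record, chr1:105663742-105663926, are shown. Capitals mark GC boxes (CCGCCC on either strand) and, in Pign, the stretch around TCGCGAGA.
Pgap1: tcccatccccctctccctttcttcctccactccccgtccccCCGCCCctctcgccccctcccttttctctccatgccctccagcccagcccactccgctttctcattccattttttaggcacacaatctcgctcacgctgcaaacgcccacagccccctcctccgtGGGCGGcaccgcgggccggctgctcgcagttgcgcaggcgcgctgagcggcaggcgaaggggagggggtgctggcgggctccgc
Pign: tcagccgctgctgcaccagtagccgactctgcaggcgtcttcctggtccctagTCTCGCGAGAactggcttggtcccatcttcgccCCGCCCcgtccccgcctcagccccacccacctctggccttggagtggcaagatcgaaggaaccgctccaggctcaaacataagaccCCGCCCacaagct

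Both windows were rich in G and C, at 68.8% for Pgap1 and 63.2% for Pign, against a median of 52.4% over 32851 RefSeq windows of 250 bases. Pgap1's window held 20 CG pairs and Pign's held 16. Each held 2 GC boxes, a motif present in 32.7% of all windows. The Pign window also held 1 CCAAT box (CCAAT, in 33.8% of windows), in the bases that are not shown. It held 2 stretches of TCGCGAGA, 1 of them shown. At least 1 such stretch is present in 0.858% of windows. This motif was searched after the sequence had been seen, and where its matches on the 2 strands overlap they were counted as 1 stretch. Neither window held a TATA box (TATAAA, 12.4% of windows), an E-box (CACGTG, 6.02%) or an interferon-stimulated response element (TTTCNNTTTC, 2.98%) on either strand. These matches describe letters and not binding.

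Per transcript length, the 10 genes spanned 17.6-fold in the anti-gp120 libraries, from Pgap2 to Pigv. Levels are compared between genes only as deposited RPKM, reads scaled to the length of the gene model and the size of the library. Pgap2 (45.3 ± 6.19 RPKM, SD, n = 5), Pigt (42.8 ± 2.78 RPKM) and Pigs (40.6 ± 1.59 RPKM) led the order, and their ranges over the anti-gp120 libraries overlapped from each to the next. Gpaa1 followed at 25.6 ± 2.73 RPKM and Pigk at 10.8 ± 0.886 RPKM, each apart from its neighbours on both sides. Pign (5.60 ± 0.560 RPKM) and Pgap3 (4.88 ± 0.645 RPKM) overlapped. Pgap1 (2.79 ± 0.371 RPKM), Piga (2.58 ± 0.298 RPKM) and Pigv (2.57 ± 0.319 RPKM) were the lowest, below Pgap3 without overlap and not separable from each other in this order. The catalytic subunit Pigk thus had a lower level than Gpaa1, Pigs and Pigt, and the first enzyme of the pathway, Piga, had a level close to the lowest.

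**Figure D1:**
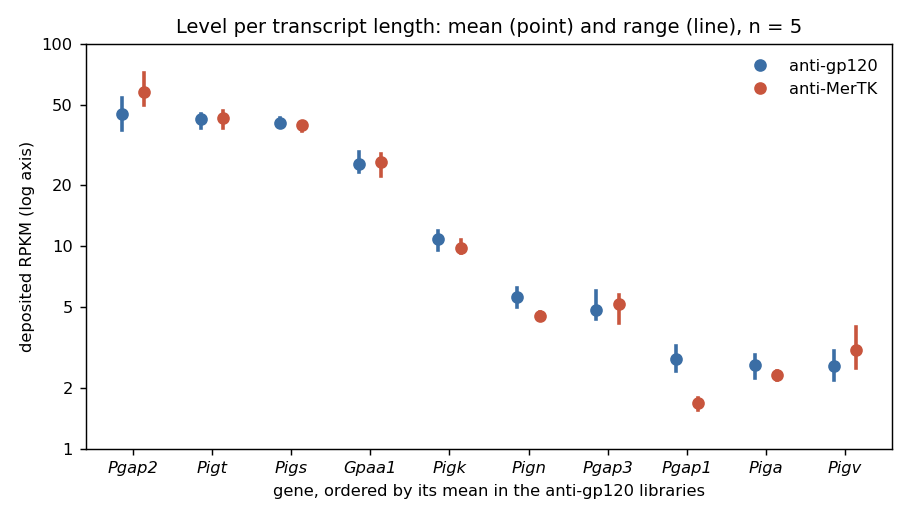
Deposited RPKM on a log axis for the 10 genes, ordered by their mean in the anti-gp120 libraries; points are means and lines the range over 5 libraries per treatment. Pgap1 is the eighth gene in the anti-gp120 libraries and the lowest of the 10 in the anti-MerTK libraries.

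After anti-MerTK the order at the top was the same, and Pgap1 moved to the lowest place at 1.68 ± 0.0949 RPKM (range 1.56 to 1.79). Its range lay below those of Piga (2.19 to 2.43 RPKM) and Pigv (2.51 to 4.02 RPKM). Pign, at 4.53 ± 0.211 RPKM, moved below Pgap3, at 5.17 ± 0.591 RPKM, with overlapping ranges. The summed level of the 10 genes was 184 ± 6.85 RPKM after anti-gp120 and 194 ± 6.87 RPKM after anti-MerTK (SD, n = 5), a sum to which Pgap2, Pigt and Pigs contributed most.

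Among the early enzymes, Pign was lower after anti-MerTK, while Piga and Pigv overlapped between the groups. Pign adds ethanolamine phosphate to the first mannose of the growing glycan. Its level was 43.2, 52.1, 48.5, 53.4 and 42.9 CPM in anti-gp120 replicates 1 to 5. In anti-MerTK replicates 1 to 5 it was 40.7, 37.9, 37.0, 41.0 and 37.4 CPM. Every anti-MerTK library was below every anti-gp120 library, although anti-MerTK replicates 1 and 4 came close to anti-gp120 replicates 1 and 5. The means were 48.0 ± 4.88 and 38.8 ± 1.89 CPM (SD, n = 5), a log2 fold change of -0.31 (SE 0.08), or 80.8% of the anti-gp120 level. Pign was past the threshold in 7 of the 19 alternative settings, and no longer so when any 1 library other than anti-gp120 replicate 1 or 5 was left out (log2 fold changes from -0.35 to -0.27 over the left-out libraries).

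Piga is the X-linked catalytic subunit of the complex that starts the pathway by moving N-acetylglucosamine onto phosphatidylinositol. Its level ran from 7.93 to 10.4 CPM after anti-gp120 and from 7.86 to 8.68 CPM after anti-MerTK, with a log2 fold change of -0.16 (SE 0.10). The anti-MerTK libraries lay inside or just below the anti-gp120 range. Pigv, which adds the second mannose, was measured at 12.8, 14.6, 15.3, 14.7 and 17.9 CPM after anti-gp120. After anti-MerTK it was 18.7, 23.6, 16.2, 17.2 and 14.7 CPM. The log2 fold change was 0.26 (SE 0.13). The highest value came from anti-MerTK replicate 2. The groups overlapped, since anti-gp120 replicate 5 was above anti-MerTK replicates 3, 4 and 5.

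The 4 transamidase subunits differed little between the groups, with log2 fold changes from -0.14 to 0.02. Pigk, the protease-like subunit that cleaves the protein's attachment signal, had the lowest of these. Its level was 57.1 ± 4.52 CPM with anti-gp120 against 51.7 ± 3.39 CPM with anti-MerTK (SD, n = 5), a log2 fold change of -0.14 (SE 0.07). All 5 anti-MerTK libraries were below the anti-gp120 mean, but the ranges of 50.8 to 61.9 and 48.4 to 56.9 CPM overlapped. Gpaa1, Pigs and Pigt complete the complex with Pigk and with Pigu, which is counted among the other synthesis genes. The log2 fold change was 0.02 (SE 0.09) for Gpaa1, -0.03 (SE 0.06) for Pigs and 0.01 (SE 0.07) for Pigt, with signs that turned under some alternative settings. Pigs was the steadiest of the 4 between libraries, at 101 ± 3.75 and 98.3 ± 4.19 CPM.

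Of the 3 genes that act after attachment, Pgap1 had the lowest and Pgap2 the highest log2 fold change of the set, and Pgap3 lay near 0. Pgap1 removes the acyl chain from the inositol of the anchor in the endoplasmic reticulum, a step needed for efficient export. Its level was 25.6, 28.5, 33.7, 33.0 and 26.1 CPM in anti-gp120 replicates 1 to 5. In anti-MerTK replicates 1 to 5 it was 16.4, 17.3, 17.2, 18.9 and 18.4 CPM. The groups were well apart, with the highest anti-MerTK value below the lowest anti-gp120 value. The anti-MerTK libraries also lay closer together. The means were 29.4 ± 3.79 and 17.6 ± 1.02 CPM (SD, n = 5), a log2 fold change of -0.74 (SE 0.09), or 60.0% of the anti-gp120 level. These values rest on 561 to 1220 reads per library. Over the 19 alternative settings, which refit the same libraries, the log2 fold change lay between -0.78 and -0.54.

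**Figure D2:**
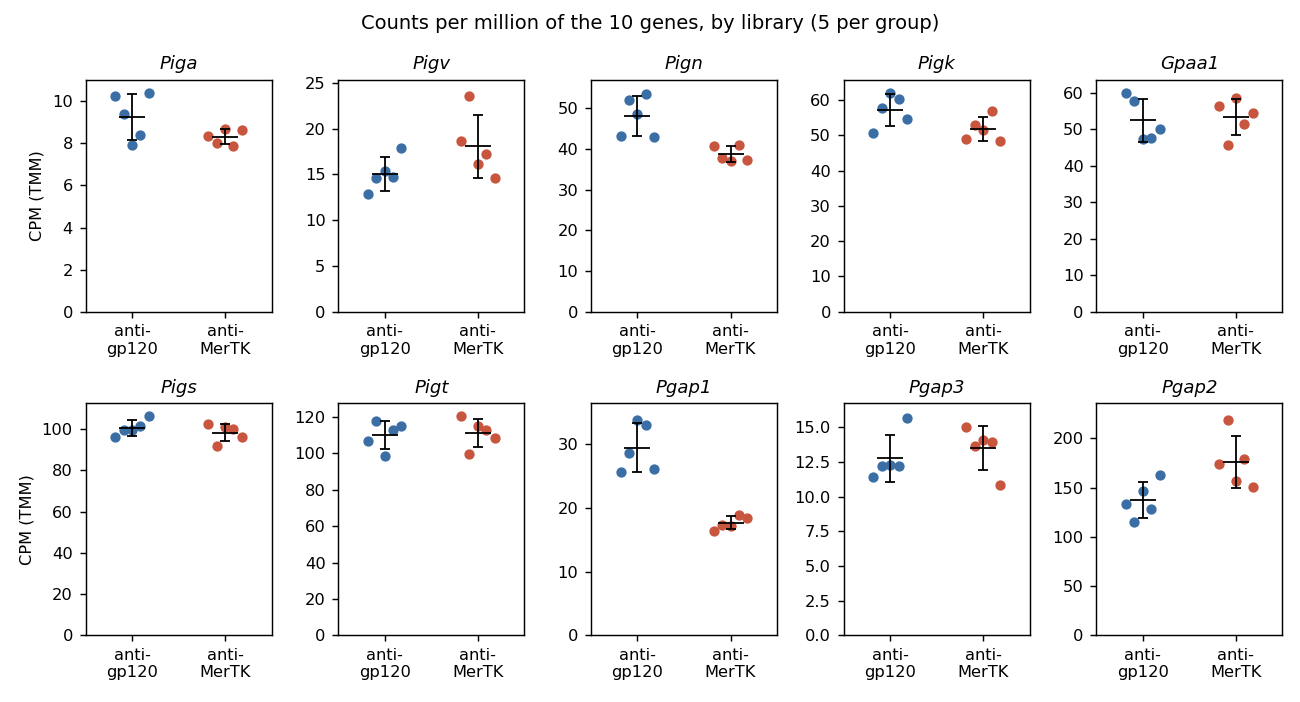
CPM of each of the 10 genes by treatment, with a separate vertical axis per gene starting at 0; points are the 5 libraries of a treatment and bars the mean and SD. The groups are apart in Pgap1 and Pign and overlap in the other 8 genes.

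Pgap2 and Pgap3 act later, in the Golgi, where they exchange a fatty acid of the anchor so that it carries saturated chains. Pgap2 was measured at 134, 115, 146, 128 and 163 CPM after anti-gp120. After anti-MerTK it was 174, 219, 156, 179.5 and 151 CPM. Every anti-MerTK library was above the anti-gp120 mean, and the ranges overlapped through anti-gp120 replicate 5. The log2 fold change was 0.36 (SE 0.11), from 137 ± 18.1 to 176 ± 26.9 CPM (SD, n = 5). It passed the threshold only with DESeq2. Pgap3 was measured at 12.7 ± 1.67 and 13.5 ± 1.56 CPM, a log2 fold change of 0.08 (SE 0.11) that was -0.015 with offsets for transcript length and GC content.

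Pgap1 and Pgap2 thus stood in different proportions in the 2 groups. The ratio of Pgap2 to Pgap1 RPKM lay between 13.5 and 21.7 in the anti-gp120 libraries and between 28.5 and 44.1 in the anti-MerTK libraries, without overlap. Pgap1 was chosen on this contrast, and Pgap2 is taken here as the highest log2 fold change of the set. The gap in this ratio thus follows from that choice and is no further result. Over all 10 genes, 2 were lower and 0 higher at the threshold with edgeR, beside 3.22% of all tested genes called in either direction, and 2 had groups that did not overlap, beside 5.97% of all genes. Since the set was chosen on this contrast, these counts describe the choice. The median log2 fold change of the 10 genes was -0.01, as was that of all tested genes. In bulk RNA of this kind, fewer cells that express a gene and less of its RNA per cell cannot be told apart.

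Transcript length and base composition moved with the difference between the groups across all genes, and Pgap1 and Pign are the 2 longest of the set. The longest annotated transcript (GENCODE M21) is 10583 bases with 39.3% GC for Pgap1 and 6759 bases with 40.8% GC for Pign. Over the 11909 tested genes with a value (87.6%), the medians are 3361 bases and 49.6% GC. Among the 1639 tested genes with a transcript over 6000 bases, the median log2 fold change was -0.15, and 75 were lower and 13 higher at the threshold. Among those of up to 1500 bases the median was 0.08. In the 316 genes that are both over 6000 bases and at most 42% GC, Pgap1 and Pign included, the median was -0.18, and 33 were lower and 2 higher.

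**Figure D3:**
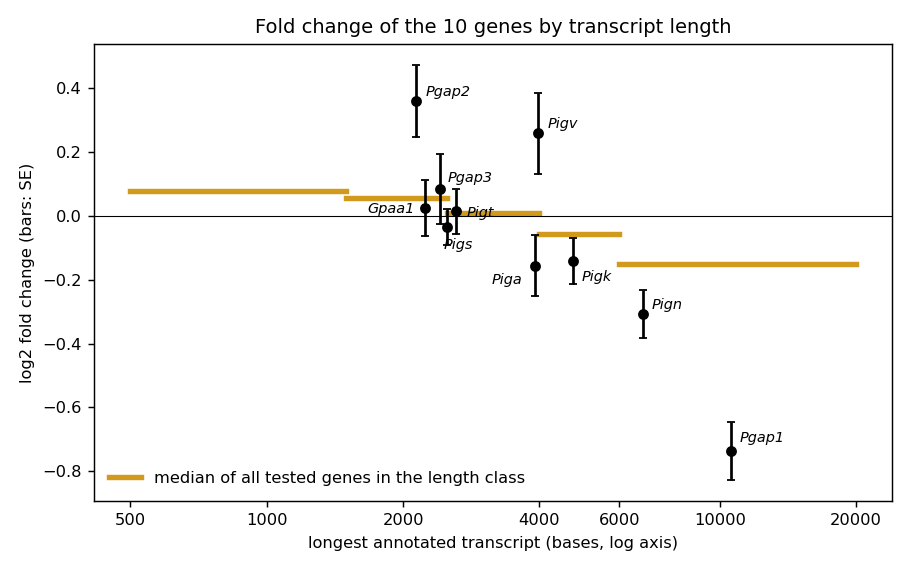
Log2 fold change (anti-MerTK over anti-gp120, bars SE) against the length of the longest annotated transcript on a log axis for the 10 genes, with the median of all tested genes in 5 length classes as horizontal lines (the outer classes are open-ended). Pgap1 lies far below the line of its class, at -0.74 against -0.15, and Pign at -0.31 in the same class.

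With offsets for length and GC content in each library, an alternative chosen after seeing the data, the log2 fold change of Pgap1 was -0.54 (SE 0.10) and that of Pign -0.16 (SE 0.06). In that fit Pign was no longer past the threshold. The log2 fold changes of Pgap2 and Pigv were 0.31 (SE 0.12) and 0.24 (SE 0.13). Pgap1 was also set against the mean log2 CPM of the other 314 long genes of low GC content within each library. In anti-gp120 replicates 1 to 5 it lay above that mean by 0.32, 0.36, 0.78, 0.56 and 0.45. In anti-MerTK replicates 1 to 5 the difference was -0.17, -0.09, -0.06, -0.01 and -0.01. The groups stayed apart on this scale, for a gene that was chosen for its difference between them. For Pign the same difference ran from 1.07 to 1.30 and from 1.01 to 1.14, and the groups overlapped.

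**Figure D4:**
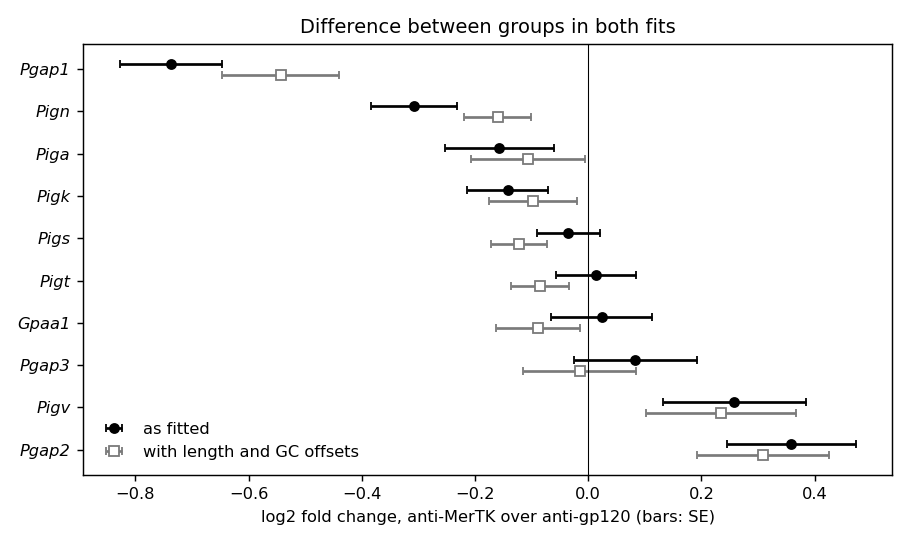
Log2 fold change (anti-MerTK over anti-gp120) of the 10 genes in the fit on counts (filled) and with offsets for transcript length and GC content (open), bars SE. Pgap1 is the lowest in both, at -0.74 and -0.54, and Pgap2 the highest, at 0.36 and 0.31.

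Markers of 2 other cell types held a gene past the threshold. The monocyte list had positive estimates in 8 of its 9 genes, while 51.0% of all tested genes had negative ones. This gap was not tested. The list summed to 558 to 1376 CPM after anti-gp120 and 756 to 1620 CPM after anti-MerTK, with overlap. Fn1 alone ran from 326 to 1032 and from 285 to 1203 CPM. In the list only Plac8 passed the test, higher, beside 3.22% of all tested genes called, and no marker was at 0. The 7 markers of epithelial tumour cells summed to 36.0 to 59.8 and 25.8 to 34.2 CPM, without overlap. Nearly all of this was Cdh1 (34.6 to 59.8 and 25.6 to 34.2 CPM), which passed the test, lower. Cldn4 was at 0 in all libraries. Epcam, Krt8, Krt18, Krt19 and Cldn7 were at 0 in some and reached at most 1.56 CPM (Krt8) in any. The part of these cells in the lower level of Pgap1 was not tested. Among the macrophage markers, Fcgr1 passed the test, higher. Plac8, Cdh1 and Fcgr1 are named here after their values were seen.

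Annotated exons of 3 genes of the set overlap those of another gene, and reads there may be assigned to either. In GENCODE M21, Pgap2 shares 606 exon bases (13.4% of its own) with AC139579.1 on the same strand. Pign shares 364 (2.68%) with AC124553.1 on the same strand, and Pigk shares 108 (1.14%) with St6galnac5 on the opposite strand, where the assignment depends on whether counting used strand, which the sources used here do not say. In GENCODE, Pigk ends at base 152980408 of chromosome 3, and in RefSeq at 152842926. The overlap of Pigk may therefore be absent from the gene model that was counted. The gene Gm36955 overlaps Pgap1 and shares 0 exon bases with it.

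None of the other genes of GPI synthesis passed the test. This list holds 20 genes, among them the remaining subunits of the first enzyme complex, the mannosyltransferases other than Pigv and the dolichol-phosphate-mannose synthase, which supplies the mannose. All 20 were tested, and 0 rose and 0 fell with edgeR, DESeq2, limma-voom or limma on log2 RPKM. Over all 13588 tested genes, DESeq2 called 1168, limma-voom 1036 and limma on log2 RPKM 334. By edgeR, 1 had an unadjusted p under 0.05. Over all tested genes edgeR called 3.22%, so a list of this size with 0 calls is near the background. The 1 of 20 at an unadjusted p under 0.05 is a smaller share than the 20.9% of all tested genes. This gap was not tested. Their log2 fold changes lay between -0.18 and 0.19, with a median of -0.01. The 2 of smallest p were Pigb, the third mannosyltransferase (-0.17, SE 0.07, edgeR adjusted p = 0.192), and Pigm, the first (-0.18, SE 0.09, edgeR adjusted p = 0.279). Both also have transcripts over 6000 bases, and with the length and GC offsets their log2 fold changes were -0.05 and -0.04.

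None of the remaining genes of anchor remodelling and sorting passed either. Of 12 genes, 10 were tested. Pgap4 and Gdpd2, at up to 0.216 CPM, were not. With edgeR 0 rose and 0 fell, 0 had an unadjusted p under 0.05, and DESeq2, limma-voom and limma on log2 RPKM each called 0. Among all 13588 tested genes, DESeq2 called 1168, limma-voom 1036 and limma on log2 RPKM 334. At 3.22% called by edgeR over all tested genes, 0 of 10 is again near the background. For an unadjusted p under 0.05 the share over all tested genes was 20.9%, above that of these 10. This gap was not tested. The log2 fold changes lay between -0.16 and 0.17, with a median of -0.05. Pgap6, a GPI-specific phospholipase, had 0.17 (SE 0.09, edgeR adjusted p = 0.270). Tmed5, a p24 cargo receptor that loads anchored proteins into transport vesicles, had -0.16 (SE 0.08, edgeR adjusted p = 0.282).

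Of the genes that encode the anchored cargo, Bst2 rose. Bst2, or tetherin, is an interferon-induced protein that keeps enveloped viruses on the cell surface, and is held by a GPI anchor at one end. Its level was 464, 383, 471, 488 and 556 CPM in anti-gp120 replicates 1 to 5. In anti-MerTK replicates 1 to 5 it was 634, 826, 774, 777 and 704 CPM. All 5 anti-MerTK libraries were above all anti-gp120 libraries. The log2 fold change was 0.65 (SE 0.10, edgeR adjusted p = 0.0114), from 473 ± 61.8 to 743 ± 74.8 CPM (SD, n = 5). Bst2 passed in 19 of the 19 alternative settings, which refit the same libraries. Its longest transcript has 792 bases, and with the length and GC offsets its log2 fold change was 0.54 (SE 0.11).

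The cargo list holds 64 genes, of which 63 were matched and 35 tested. With edgeR 1 rose (Bst2) and 0 fell, beside 8 at an unadjusted p under 0.05. These counts are near the shares over all tested genes, of 3.22% called and 20.9% at an unadjusted p under 0.05, and so are no result about the list. The log2 fold change was positive in 20 and negative in 15, with a median of 0.08 against -0.01 for all tested genes. The tested transcripts of the list include short ones, such as Cd52 (514 bases), and long ones, such as Ulbp1 (5959 bases). Over all tested genes, the median was 0.08 for those of up to 1500 bases and -0.06 for those of 4000 to 6000. The part of length in the list's median was not tested. DESeq2 called 4 of the 35 (Bst2, Ly6a, Ly6c2 and Vnn3), limma-voom 3 (Bst2, Ly6a and Prnp) and limma on log2 RPKM 1, beside 1168, 1036 and 334 of the 13588 tested genes. The names are given after the values were seen. The 28 matched genes that were not tested had at most 0.891 CPM. Ly6c2 is also among the monocyte markers.

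The most abundant cargo transcripts, named after their values were seen, did not pass the test. Cd52, a short glycopeptide of leukocyte surfaces, led at 2585 RPKM in the anti-gp120 libraries, followed by Ly6e at 1525, Ly6a at 1243 and Cd14 at 1070 RPKM. Ly6a and Ly6e belong to the Ly6 family of small surface proteins. In log2 fold change, Cd52 had 0.21 (SE 0.10), Ly6e 0.26 (SE 0.13), Ly6a 0.61 (SE 0.20) and Cd14 -0.29 (SE 0.27), with edgeR adjusted p from 0.114 to 0.575.

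**Figure D5:**
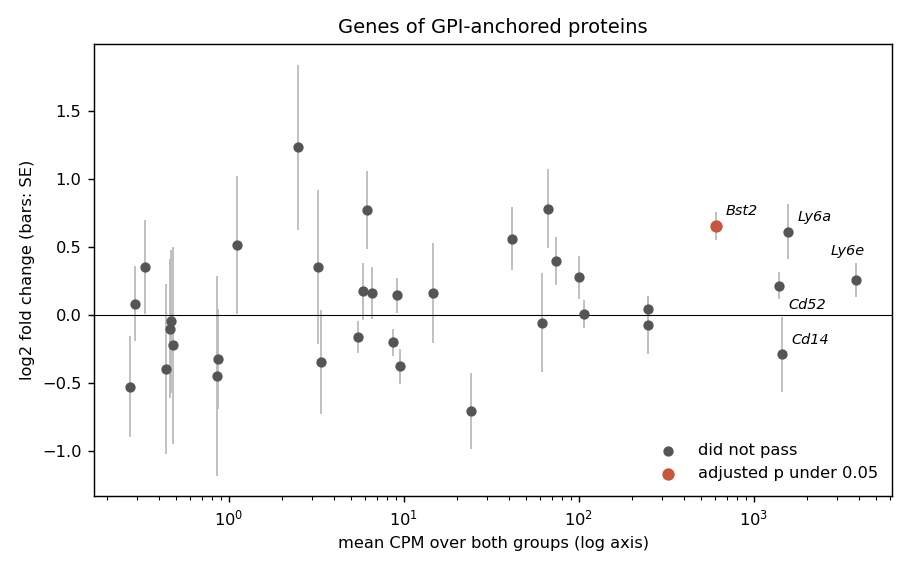
Log2 fold change (anti-MerTK over anti-gp120, bars SE) of the 35 tested genes of GPI-anchored proteins against their mean CPM over both groups on a log axis. Bst2, in red at 0.65, is the gene that passed the test, and Cd52, Ly6e, Ly6a and Cd14 are labelled as the other abundant ones.

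The genes whose level followed that of Pgap1 most closely over the 10 libraries were Fut11, Mtmr1, Tmem106b and Prpf18, among 10187 candidates. Their Pearson r of log2 CPM with Pgap1 was 0.989, 0.989, 0.983 and 0.981. The 10 libraries share the treatment difference, so r was also taken after subtracting each group's mean, and was then 0.907, 0.894, 0.865 and 0.939. The genes were picked by r over these same libraries, so a high r here follows in part from that choice. Mtmr1 is a phosphoinositide phosphatase of the myotubularin family, Tmem106b a lysosomal membrane protein and Prpf18 a splicing factor. Their log2 fold changes were smaller than that of Pgap1, at -0.21 for Fut11, -0.31 for Mtmr1, -0.46 for Tmem106b and -0.18 for Prpf18. Within the set, Pign had r = 0.89 with Pgap1 (0.61 after subtracting group means) and Pigk 0.78 (0.80), while Pgap2 had -0.70 (-0.15). Piga had 0.26 over all libraries and -0.89 after subtracting group means. These correlations describe 10 libraries that also share depth and normalization.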

How the data were processed

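Whole-number counts of reads per gene model were deposited, per the file headers, and the deposited RPKM values are those counts scaled by the authors for gene length and library size, per the file headers. Reads were aligned with GSNAP to GRCm38, per the submitters' processing notes. The counting tool, annotation and strand use were not given in the sources used here. Each RPKM value equalled the count times a gene and a library factor, within 5.3e-14. Entrez identifiers were named from RefSeq's GRCm38.p6 table (31049 of 36528, the others holding 2.14% to 2.66% of counts).

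Genes kept by filterByExpr were tested with edgeR 4.0.16 (quasi-likelihood, TMM, treatment as the term, Benjamini-Hochberg at 0.05; limma 3.58.1, R 4.3.3), which was tested on simulated data. CPM uses TMM library sizes. The SE of a log2 fold change is its size over the square root of F. Alternatives were other normalizations, filters, DESeq2 1.42.0, limma-voom, limma on log2(RPKM + 0.1), left-out libraries and, added after seeing the data, offsets for length and GC content. The members and lists were chosen with earlier results of these data known. Named genes are the members, per list (synthesis, remodelling and sorting, anchored proteins) those past the threshold or else the 2 of smallest p, the 4 most like Pgap1, and overlapping genes. Marker lists of the other cell types (neutrophils, dendritic cells, T and NK cells, B cells, fibroblasts, endothelial cells) had 0 genes past the threshold. In that order, 2, 5, 1, 2, 6 and 4 of their genes were tested. With so few tested and 3.22% of all tested genes called, 0 calls is near the background and no result about these cells.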

Additional observations from a re-analysis of the deposited data

Results flagged for a closer look

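Pgap3 was high in anti-gp120 replicate 5, at 15.7 CPM, against 11.4 to 12.3 CPM in the other 4 anti-gp120 libraries. The gap to the nearest library was 0.802 of the group's whole range. Among 38 groups of 5 values examined this way, this was the 1 that stood out, and chance marks about 1 in 20.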

How the results depend on the processing

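No paired analysis was possible because the labels carry no replicate numbers, and those used here follow accession order. Over 19 alternatives, the count of all genes past the threshold was 1168 with DESeq2, 1036 with limma-voom, 204 without anti-MerTK replicates 2 and 5, and 70 (without anti-gp120 replicate 4) to 654 (without anti-MerTK replicate 5) when 1 library was left out. It was also over 1.5 times lower without anti-gp120 replicate 2 (131) or anti-MerTK replicate 1 (113), 2 (154), 3 (124) or 4 (243). Of the 10 members, 1 passed with no filter, with limma on log2 RPKM, with the length and GC offsets and without anti-MerTK replicates 2 and 5, and 1 to 2 when a library was left out. Pign lost its call in 12 of the 19. Of the GPI-anchored protein genes, 4 passed with DESeq2, 3 with limma-voom, 2 without anti-MerTK replicates 2 and 5 and 1 to 2 when a library was left out (2 without anti-MerTK replicate 5). The other synthesis, remodelling and sorting genes gave 0 calls in each alternative. The sign turned in 4 members whose log2 fold change was near 0. With the offsets it was -0.015 for Pgap3, -0.085 for Pigt and -0.088 for Gpaa1. Without anti-MerTK replicates 2 and 5 it was 0.0062 for Pigs. When a library was left out it ran from -0.020 to 0.053 for Pigt and from -0.011 to 0.076 for Gpaa1. The cause of these changes was not tested. Depth limits Piga most, at 260 to 423 reads per library.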
